A study of Mus musculus with 6 samples.

Results

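Genes for mitochondrial ribosomal proteins were described in livers of 3 PiZ and 3 wild-type mice. Members were all genes whose annotated symbol begins with Mrpl or Mrps followed by a digit, each read by a probe set (a group of short probes on the array) that names no other gene. Where a gene had several such probe sets, the brightest by its mean over all 6 arrays stood for it. The rule found 74 of the 12393 genes measured, 47 named for the large subunit and 27 for the small subunit. All mice were 6 weeks old and C57BL/6, and PiZ animals also carried the PiZ transgene, kept on that background. This transgene encodes the Z variant of human alpha-1 antitrypsin, a protease inhibitor that hepatocytes normally secrete and that, in this variant, misfolds and is retained in their endoplasmic reticulum. Total liver RNA was read on one-colour Affymetrix arrays, 1 per biological replicate, and the values are log2 intensities. A difference of 1 on this scale is a 2-fold change. Intensity depends on the probes as well as on the RNA, so levels were compared within a gene and not between genes.

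Mitochondria translate the few proteins of their own genome on a ribosome of their own, and these proteins are core subunits of the respiratory chain and of ATP synthase. The ribosomal RNA comes from mitochondrial DNA, whereas the ribosomal proteins are encoded in the nucleus, made in the cytosol and imported. The small subunit binds the messenger RNA and decodes it, and the large subunit joins the amino acids. Some of the proteins have a bacterial counterpart, and others were added during the evolution of mitochondria. Liver cells hold many mitochondria, which serve beta-oxidation, the urea cycle and ATP supply.

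The 6 arrays gave 12393 genes, of which 2921 (23.6%) passed the threshold of an adjusted p of 0.05 in limma. Wild-type arrays correlated at 0.996 to 0.997 with each other over these genes. PiZ replicate 1 correlated with them at 0.980 to 0.981, and PiZ replicates 2 and 3 at 0.962 to 0.969. Control probe sets at the 3′ and 5′ ends of Gapdh, a measure of RNA integrity, differed by 1.49 to 2.06 in wild-type. In PiZ the difference was 1.99 for replicate 1, 4.39 for replicate 2 and 4.01 for replicate 3. The same difference for actin was 2.90 to 3.34 in wild-type and 3.02, 4.89 and 4.66 in PiZ replicates 1, 2 and 3. PiZ replicate 1 thus lay within the wild-type range and the other 2 PiZ arrays lay above it. All 8 hepatocyte markers were measured, with a mean level of 13.79 to 13.87 in wild-type and 13.64 to 13.89 in PiZ.

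All 74 members had a mean log2 intensity of at least 6, from 6.91 for Mrps6 to 12.02 for Mrpl39. Of the protein-coding genes that match the name rule in the reference table, Mrpl30, Mrpl53, Mrps10 and Mrps27 had no probe set of their own and were not analysed here. In the comparison of PiZ with wild-type, 5 members rose (6.76%, against 11.3% of all genes) and 8 fell (10.8%, against 12.3% of all genes). The remaining 61 did not pass the threshold, and 17.6% of members against 23.6% of all genes passed it in either direction. Among large-subunit genes 3 of 47 rose (Mrpl11, Mrpl54 and Mrpl48) and 6 fell (Mrpl9, Mrpl14, Mrpl49, Mrpl1, Mrpl27 and Mrpl3). Among small-subunit genes 2 of 27 rose (Mrps18b and Mrps34) and 2 fell (Mrps11 and Mrps33). The median difference (PiZ minus wild-type) was -0.08 over the large subunit, -0.12 over the small subunit and 0.08 over all genes. Over the 7398 genes with a mean of at least 6, the median was -0.05, 13.8% were higher, 18.7% were lower and 32.6% passed in either direction. The members' shares were thus no higher than those of all genes in either direction.

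These counts depended on single arrays. With any of the 3 wild-type arrays left out, or PiZ replicate 3, 3 members passed (Mrps18b, Mrps34 and Mrpl49), beside 8.92%, 10.2%, 8.62% and 11.6% of all genes. Without PiZ replicate 2, 6 members passed (the same 3 with Mrpl14, Mrpl54 and Mrps11), beside 14.4% of all genes. Without PiZ replicate 1, 42 members passed, 10 higher and 32 lower, beside 49.8% of all genes (27.4% higher and 22.4% lower). Mrps18b, Mrps34 and Mrpl49 were the members that passed with every array left out in turn.

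**Figure D1:**
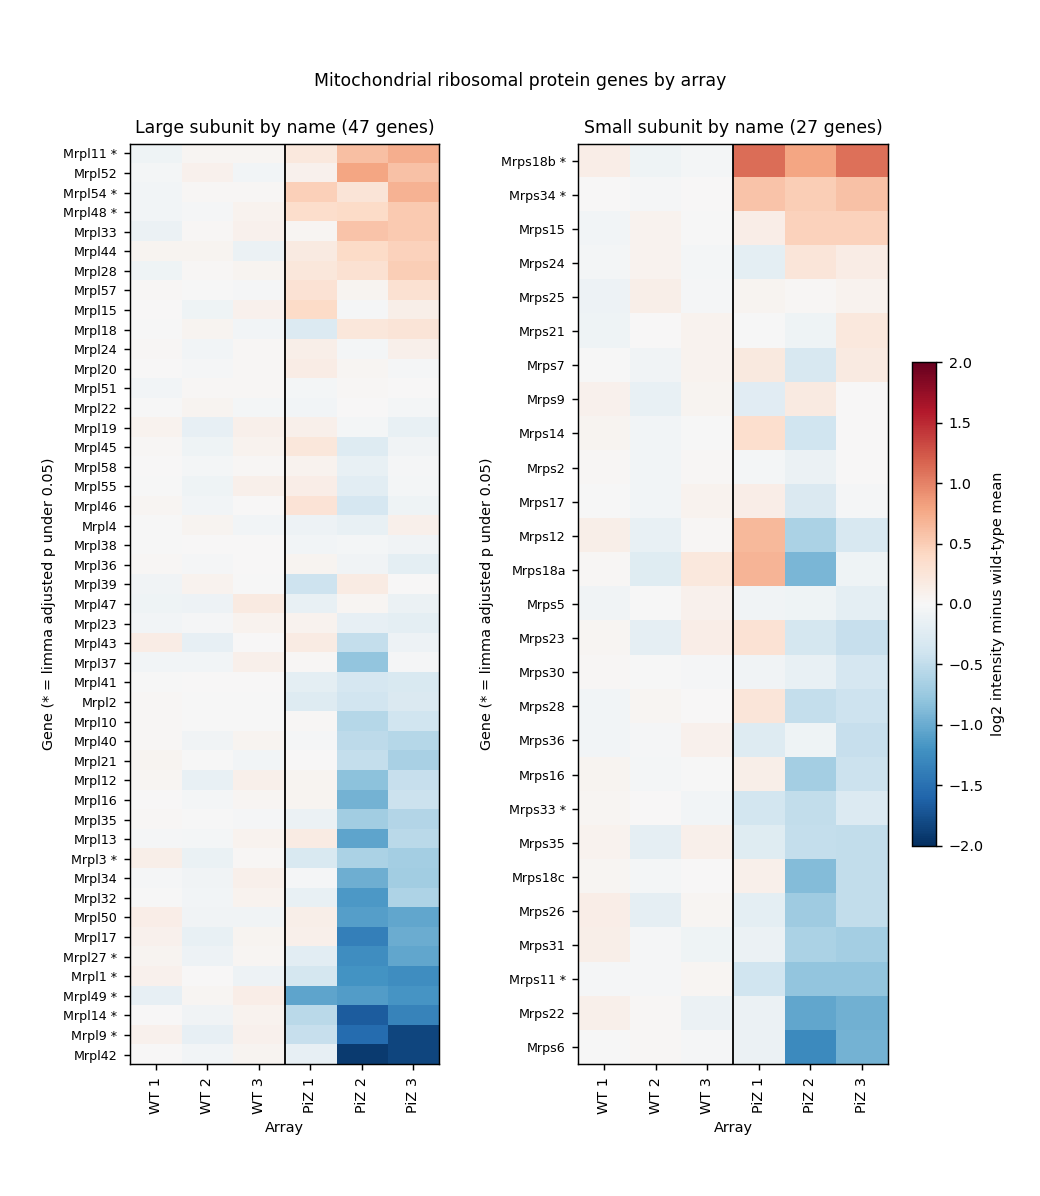
Difference of each array from the wild-type mean (colour, log2 intensity) for the 47 large-subunit and 27 small-subunit genes (rows), by array (columns). Asterisks mark the 13 genes past the threshold. Most genes toward the foot of each panel are darkest blue in PiZ replicates 2 and 3, whereas Mrpl49 is low and Mrps18b and Mrps34 are high in all 3 PiZ arrays.

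The stretches upstream of 5 of the members that changed are shown here as examples of 3 motifs. NRF1, ETS-family factors such as GABP, and YY1 are factors known to act on nuclear genes for mitochondrial proteins. The 5 were chosen after their values were seen. Of the other members that changed, Mrpl3 (ETS core, 19 bases before the start), Mrpl48 (ETS core, 34 bases) and Mrpl11 (NRF1 core, 170 bases) also hold a motif upstream and are not printed. Each line gives the 250 bases before the annotated start, 5′ to 3′ on the gene's strand, from RefSeq on build GRCm38.p6. Capitals mark the motif. For Mrps18b (chr17:35916441-35916690, minus strand) and Mrpl9 (chr3:94443086-94443335, plus strand) it is the NRF1 core TGCGCA. For Mrpl27 (chr11:94653541-94653790, plus strand) it is the ETS core CCGGAAG, and for Mrpl49 (chr19:6057756-6058005, minus strand) the YY1 core AAGATGG. For Mrps11 (chr7:78782881-78783130, plus strand) the YY1 core reads on the other strand and so appears as its reverse complement.
Mrps18b: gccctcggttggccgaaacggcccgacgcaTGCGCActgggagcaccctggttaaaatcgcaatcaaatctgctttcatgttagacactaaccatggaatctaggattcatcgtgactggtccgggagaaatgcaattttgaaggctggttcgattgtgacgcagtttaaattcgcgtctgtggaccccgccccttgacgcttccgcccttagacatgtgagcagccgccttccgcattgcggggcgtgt
Mrpl9: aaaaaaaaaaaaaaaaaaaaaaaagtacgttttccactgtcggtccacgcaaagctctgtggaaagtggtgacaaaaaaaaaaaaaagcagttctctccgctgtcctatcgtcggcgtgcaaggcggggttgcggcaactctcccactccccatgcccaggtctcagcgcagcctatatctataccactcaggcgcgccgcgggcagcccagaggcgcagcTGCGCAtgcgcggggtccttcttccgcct
Mrpl27: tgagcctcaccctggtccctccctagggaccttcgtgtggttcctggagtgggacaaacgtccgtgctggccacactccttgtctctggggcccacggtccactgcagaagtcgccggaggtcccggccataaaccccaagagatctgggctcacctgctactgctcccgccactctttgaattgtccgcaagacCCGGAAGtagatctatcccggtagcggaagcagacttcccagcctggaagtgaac
Mrpl49: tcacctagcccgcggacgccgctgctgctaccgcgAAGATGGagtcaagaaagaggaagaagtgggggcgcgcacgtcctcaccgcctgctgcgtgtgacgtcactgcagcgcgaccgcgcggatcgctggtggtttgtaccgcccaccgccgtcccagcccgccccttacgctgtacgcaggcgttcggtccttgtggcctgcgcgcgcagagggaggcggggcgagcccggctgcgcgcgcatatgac
Mrps11: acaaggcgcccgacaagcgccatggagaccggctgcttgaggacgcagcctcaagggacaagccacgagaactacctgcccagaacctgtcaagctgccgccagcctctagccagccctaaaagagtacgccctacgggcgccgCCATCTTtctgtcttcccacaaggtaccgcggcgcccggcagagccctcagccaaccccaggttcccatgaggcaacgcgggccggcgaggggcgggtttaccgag
The motif begins 220 bases before the start in Mrps18b, 29 in Mrpl9, 55 in Mrpl27, 215 in Mrpl49 and 106 in Mrps11. Mrps18b rose and the other 4 genes fell, as given below.

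Motif searches covered 300 bases per annotated start, 250 before and 50 after it, on both strands. The table held 71 such windows for 65 of the 74 members. For 3 of these genes it held several windows, some overlapping. TGCGCA is its own reverse complement. It was present in 22 of the 71 windows (31.0%), against 11.7% of 12566 windows of all genes on the array and 7.76% of all 32851 windows. CCGGAAG was present in 24 (33.8%), against 14.0% and 8.86%. AAGATGG was present in 12 (16.9%), against 6.56% and 6.34%. TTGCATC, the core of a composite site of ATF4, a factor of the stress response, was present in 1 (1.41%), against 2.16% and 2.53%. The median GC content of members' windows was 58.7%, against 59.0% for genes on the array and 52.7% for all windows. The NRF1, ETS and YY1 letters were thus present in a larger share of members' windows than of others, at like GC content to genes on the array.

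By direction of change the counts were small. Of the 8 windows of genes that fell, 1 held TGCGCA, 3 CCGGAAG and 2 AAGATGG. Of the 6 windows of 3 genes that rose, 2 held TGCGCA, 2 CCGGAAG and 0 AAGATGG. Of the 57 windows of genes that did not pass, 19 held TGCGCA, 19 CCGGAAG and 10 AAGATGG.

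In the small subunit, Mrps18b and Mrps34 rose. Mrps18b, a mitochondria-specific relative of bacterial S18, read 9.13, 8.90 and 8.94 in wild-type and 10.10, 9.78 and 10.09 in PiZ replicates 1, 2 and 3. All 3 PiZ values lay above the wild-type range, by a gap wider than the spread of either group. The difference was 1.00 ± 0.13 (SE, n = 3 and 3; 95% interval 0.69 to 1.31), a 2.00-fold rise with a limma adjusted p of 0.00311. Mrps34, a protein without bacterial counterpart that is needed for a stable small subunit, read 10.58, 10.54 and 10.57 in wild-type and 11.13, 11.05 and 11.16 in PiZ. The groups did not overlap, and both were tight. Its difference was 0.55 ± 0.10 (SE, n = 3 and 3; 95% interval 0.32 to 0.78), a 1.46-fold rise with a limma adjusted p of 0.00901. The level of Mrps34 was read by 1 probe set, and 1 further probe set that the annotation assigns to this gene together with Nme3 was not counted for either. That shared probe set read 8.42, 8.14 and 8.25 in wild-type and 8.04, 6.89 and 7.43 in PiZ, so it was lower in PiZ where the probe set of Mrps34 alone was higher.

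The small-subunit genes that fell were Mrps11 and Mrps33. Mrps11, the counterpart of a protein of the bacterial small-subunit platform, read 7.32, 7.31 and 7.37 in wild-type and 6.94, 6.54 and 6.54 in PiZ. All PiZ arrays lay below wild-type, replicate 1 nearest to it. The difference was -0.66 ± 0.14 (SE, n = 3 and 3), with a limma adjusted p of 0.0141. Mrps33, a mitochondria-specific protein, read 9.30, 9.27 and 9.21 in wild-type and 8.90, 8.77 and 8.99 in PiZ. The 3 PiZ arrays were alike and all below wild-type. The difference was -0.38 ± 0.11 (SE, n = 3 and 3), with a limma adjusted p of 0.0411. The Mrps33 call was lost when any array other than PiZ replicate 1 was left out (adjusted p up to 0.148). The Mrps11 call was lost without any wild-type array or PiZ replicate 3 (adjusted p up to 0.0661).

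In the large subunit, Mrpl49 differed least between PiZ arrays among the genes that fell. Mrpl49, a mitochondria-specific protein, read 8.41, 8.61 and 8.71 in wild-type and 7.53, 7.46 and 7.40 in PiZ. Every PiZ array was low, replicate 1 included. The difference was -1.12 ± 0.12 (SE, n = 3 and 3; 95% interval -1.39 to -0.84), 2.17-fold lower, with a limma adjusted p of 0.00151. The dimmer of its 2 probe sets differed by 0.01, so the fall was seen with 1 probe set only.

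Mrpl9, Mrpl14, Mrpl1 and Mrpl27, all with bacterial counterparts, fell with a wider spread in PiZ. Mrpl9 read 8.21, 7.96 and 8.21 in wild-type and 7.67, 6.59 and 6.29 in PiZ, a difference of -1.28 ± 0.32 (SE, n = 3 and 3) with a limma adjusted p of 0.0286. Mrpl14, which lies at the subunit interface, read 9.18, 9.09 and 9.23 in wild-type and 8.63, 7.50 and 7.83 in PiZ, a difference of -1.18 ± 0.26 with a limma adjusted p of 0.0186. In both genes PiZ replicate 1 lay nearer to wild-type than the other 2 PiZ arrays, and no PiZ value reached the wild-type range.

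Mrpl1, part of the stalk near the tRNA exit site, read 8.67, 8.59 and 8.48 in wild-type and 8.24, 7.39 and 7.34 in PiZ, a difference of -0.93 ± 0.24 (SE, n = 3 and 3) with a limma adjusted p of 0.0288. Mrpl27, which reaches toward the peptidyl transferase centre, read 10.74, 10.58 and 10.73 in wild-type and 10.47, 9.45 and 9.65 in PiZ, a difference of -0.83 ± 0.25 with a limma adjusted p of 0.0480. Mrpl3, counterpart of a protein bound near the same centre in bacteria, read 8.55, 8.30 and 8.45 in wild-type and 8.13, 7.80 and 7.75 in PiZ, a difference of -0.54 ± 0.14 with a limma adjusted p of 0.0300. The groups of these 3 genes did not overlap, with PiZ replicate 1 again the highest of the PiZ arrays. Calls of Mrpl9, Mrpl1, Mrpl27 and Mrpl3 were lost when any array other than PiZ replicate 1 was left out (adjusted p up to 0.0997, 0.100, 0.152 and 0.119). That of Mrpl14 was lost without any wild-type array or PiZ replicate 3 (adjusted p up to 0.0745).

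The large-subunit genes that rose did so by smaller amounts. Mrpl11, counterpart of a protein at the base of the bacterial factor-binding stalk, read 9.75, 9.86 and 9.87 in wild-type and 10.04, 10.44 and 10.55 in PiZ, a difference of 0.52 ± 0.15 (SE, n = 3 and 3) with a limma adjusted p of 0.0433. Mrpl54, a mitochondria-specific protein, read 8.06, 8.13 and 8.14 in wild-type and 8.59, 8.36 and 8.81 in PiZ, a difference of 0.48 ± 0.14 with a limma adjusted p of 0.0403. Mrpl48, also mitochondria-specific, read 8.42, 8.46 and 8.54 in wild-type and 8.83, 8.85 and 9.002 in PiZ, a difference of 0.42 ± 0.11 with a limma adjusted p of 0.0285. All PiZ values of these 3 genes lay above the wild-type range. Calls of Mrpl11 and Mrpl48 were lost when any array other than PiZ replicate 1 was left out, and that of Mrpl54 without any wild-type array or PiZ replicate 3 (adjusted p up to 0.146, 0.119 and 0.139).

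**Figure D2:**
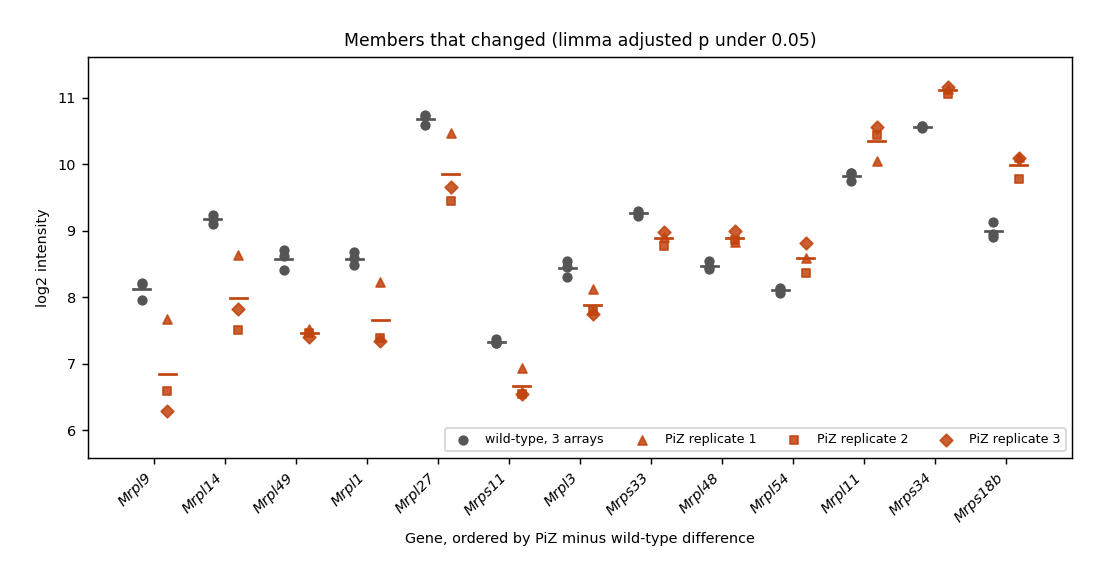
Log2 intensity (vertical axis) of the 13 genes past the threshold, ordered by their difference, in 3 wild-type arrays (grey circles) and PiZ replicates 1 (triangles), 2 (squares) and 3 (diamonds), with group means as bars. The PiZ symbols of Mrpl49, Mrps34 and Mrps33 lie together, whereas for Mrpl9, Mrpl14, Mrpl1 and Mrpl27 the triangle lies well above the other PiZ symbols.

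The largest difference of any member did not pass. Mrpl42, a mitochondria-specific large-subunit protein, read 10.21, 10.14 and 10.25 in wild-type and 10.03, 8.29 and 8.36 in PiZ. PiZ replicate 1 lay just under the wild-type range and the other 2 arrays far below it. The difference was -1.30 ± 0.42 (SE, n = 3 and 3; 95% interval -2.29 to -0.32), with a limma adjusted p of 0.0608.

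Other genes close to the threshold were of either direction. Mrpl2, whose bacterial counterpart binds at the heart of the large subunit, read 10.16, 10.12 and 10.13 in wild-type and 9.87, 9.75 and 9.85 in PiZ, a difference of -0.31 ± 0.10 (limma adjusted p of 0.0575). Mrps35 differed by -0.40 ± 0.13 (limma adjusted p of 0.0583) and Mrpl28 by 0.34 ± 0.12 (limma adjusted p of 0.0675). Mrpl2 was below wild-type in all 3 PiZ arrays by a like amount.

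Mrps22, a mitochondria-specific protein, read 8.97, 8.89 and 8.75 in wild-type and 8.76, 7.83 and 7.91 in PiZ, a difference of -0.70 ± 0.24 (limma adjusted p of 0.0679). Mrps6, which has a bacterial counterpart, read 7.30, 7.33 and 7.28 in wild-type and 7.18, 6.03 and 6.36 in PiZ, a difference of -0.78 ± 0.27 (limma adjusted p of 0.0683). In Mrps22 and Mrps6, PiZ replicate 1 was at or near the wild-type range and the other 2 arrays were low.

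Several genes were nearly level. Mrpl51, a mitochondria-specific large-subunit protein, read 11.07, 11.15 and 11.15 in wild-type and 11.09, 11.14 and 11.13 in PiZ, a difference of 0.00 (95% interval -0.23 to 0.23). Mrpl22 differed by -0.02 (95% interval -0.25 to 0.20) and Mrpl38 by -0.05 (95% interval -0.28 to 0.17). In the small subunit Mrps2 differed by -0.05 (95% interval -0.29 to 0.18). The arrays of each of these 4 genes spanned less than the intervals.

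A few members have names or roles that set them apart. Mrps18a and Mrps30 carry small-subunit names but sit in the large subunit in structures of the mammalian mitochondrial ribosome. Mrps18a read 8.67, 8.41 and 8.86 in wild-type and 9.32, 7.73 and 8.56 in PiZ, a difference of -0.11 ± 0.36 (limma adjusted p of 0.841). Its PiZ arrays lay above, below and within the wild-type range. Mrps30 differed by -0.18 ± 0.11 (limma adjusted p of 0.261). Counting both genes with the large subunit left all 4 counts of genes that rose or fell as they were.

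Mrps36 is now known as a part of the 2-oxoglutarate dehydrogenase complex rather than of the ribosome. It read 8.35, 8.38 and 8.49 in wild-type and 8.16, 8.32 and 7.94 in PiZ, a difference of -0.27 ± 0.13 (limma adjusted p of 0.157). Mrps12, counterpart of the bacterial decoding-site protein S12, read 9.77, 9.51 and 9.68 in wild-type and 10.30, 9.02 and 9.34 in PiZ, a difference of -0.10 ± 0.30 (limma adjusted p of 0.819). PiZ replicate 1 of Mrps12 lay above wild-type and replicates 2 and 3 below it.

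Mrpl12, the stalk protein that also binds the mitochondrial RNA polymerase, read 10.58, 10.38 and 10.64 in wild-type and 10.59, 9.71 and 10.08 in PiZ, a difference of -0.41 ± 0.21 (limma adjusted p of 0.194). Mrpl44, which has a ribonuclease III fold, read 9.76, 9.76 and 9.59 in wild-type and 9.89, 10.09 and 10.17 in PiZ, a difference of 0.34 ± 0.12 (limma adjusted p of 0.0739). For Mrpl12 PiZ replicate 1 lay within the wild-type range, and for Mrpl44 all 3 PiZ arrays lay above it. Dimmer probe sets of Mrpl44 differed by 0.21 and -0.54, so its direction depends on the probe set.

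By origin, 44 members have a bacterial counterpart and 29 are specific to mitochondria, with Mrps36 in neither class. Of the 44, 1 rose (2.27%) and 6 fell (13.6%), with a median difference of -0.10. Of the 29, 4 rose (13.8%) and 2 fell (6.90%), with a median of -0.11. The shares of all genes were 11.3% higher and 12.3% lower, and the difference between the classes was not tested. Without any of the wild-type arrays or PiZ replicate 3, 0 of the 44 passed and 2 of the 29 were higher and 1 lower. Without PiZ replicate 2, 0 of the 44 were higher and 2 lower, and 3 of the 29 were higher and 1 lower. Without PiZ replicate 1, 4 of the 44 were higher and 21 lower, and 6 of the 29 were higher and 11 lower. Of all genes, 27.4% were higher and 22.4% lower without PiZ replicate 1, and 6.87% and 7.54% without PiZ replicate 2. In the fits without a wild-type array or PiZ replicate 3, 4.18% to 5.67% of all genes were higher and 4.44% to 5.96% lower. Within the large subunit the 29 genes with a bacterial counterpart had a median of -0.31 (1 rose, 5 fell) and the 18 specific genes -0.05 (2 rose, 1 fell). Within the small subunit the 15 with a counterpart had a median of -0.06 (0 rose, 1 fell) and the 11 specific genes -0.18 (2 rose, 1 fell). The large-subunit contrast was not stable. The medians of genes with a counterpart and of specific genes were -0.19 and 0.01 without PiZ replicate 2, -0.19 and 0.04 with cyclic loess, 0.02 and 0.08 in PiZ replicate 1 alone, and 0.03 and 0.09 with the 3′ to 5′ difference of the controls as a covariate. None (0) of the 29 large-subunit genes with a counterpart passed without any of the wild-type arrays or PiZ replicate 3, 1 passed without PiZ replicate 2, and 3 were higher and 15 lower without PiZ replicate 1.

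The PiZ arrays did not read the members alike. Relative to the wild-type mean, the median over large-subunit genes was 0.04 in PiZ replicate 1, -0.26 in replicate 2 and -0.12 in replicate 3. Over small-subunit genes it was -0.01, -0.35 and -0.28. Over all genes it was 0.01 in replicate 1 and 0.12 in the mean of replicates 2 and 3. Over genes with a mean of at least 6, as all members have, it was -0.05 in replicate 1 and -0.05 in the mean of replicates 2 and 3. The same medians over the members were 0.03 and -0.23. In replicate 1, 34 members were below the wild-type mean and 40 above it, and in the mean of replicates 2 and 3, 53 were below and 21 above. The lower median of the members was thus read in PiZ replicates 2 and 3, the arrays whose Gapdh and actin controls also stood apart. With the 3′ to 5′ difference of these controls as a covariate, the median difference over members was 0.04 (0.04 for the large and 0.0006 for the small subunit), against -0.10 without it. That covariate is high in PiZ replicates 2 and 3 only, so the fit rests largely on PiZ replicate 1, whose own median was 0.03. It is not a check separate from that array, and the cause of the lower median was not tested.

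Members were also counted against the wild-type range. All 3 PiZ arrays were below it for 20 members (27.0%, against 19.9% of all genes) and above it for 9 (12.2%, against 24.9% of all genes), together 29 of 74, against 44.8% of all genes. Among genes with a mean of at least 6, as all members have, 29.6% were below and 22.98% above, so neither share of the members was higher than that of genes of like level. PiZ replicates 2 and 3 alone were below it for 19 members (25.7%), against 8.25% of all genes and 12.2% of genes with a mean of at least 6. These 19 were Mrpl10, Mrpl12, Mrpl13, Mrpl16, Mrpl17, Mrpl21, Mrpl23, Mrpl34, Mrpl36, Mrpl40, Mrpl46, Mrpl50, Mrps5, Mrps12, Mrps16, Mrps18c, Mrps22, Mrps23 and Mrps28. PiZ replicates 2 and 3 alone were above it for 4 members (Mrps24, Mrpl18, Mrpl33 and Mrpl52), or 5.41% against 16.2% of all genes and 12.9% of genes with a mean of at least 6. The other 22 members followed none of these patterns.

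Among the 19, Mrpl17 read 9.97, 9.73 and 9.93 in wild-type and 9.98, 8.51 and 8.89 in PiZ, and Mrpl50 read 9.01, 8.81 and 8.81 in wild-type and 8.99, 7.78 and 7.84 in PiZ. Mrpl13 read 10.32, 10.31 and 10.41 in wild-type and 10.50, 9.29 and 9.81 in PiZ. Among the 4, Mrpl52 read 10.63, 10.75 and 10.61 in wild-type and 10.75, 11.45 and 11.25 in PiZ. These patterns are those of the brightest probe sets. Other sets with a mean of at least 6 differed by 0.34 for Mrpl13, 0.03 and -0.07 for Mrpl52, and -0.83 for Mrps24. The other set of Mrpl50 differed by -0.89, in the direction of its brightest set. By the definition of the pattern, PiZ replicate 1 was not above the wild-type range in the 4 genes. It lay within that range in Mrpl33 and Mrpl52 and below it in Mrps24 and Mrpl18, at 10.10 and 9.39. The SD was larger in PiZ than in wild-type for 66 of 74 members (89.2%), with medians of 0.24 and 0.07. It was larger in PiZ for 79.1% of all genes, and for 83.6% of genes with a mean of at least 6, whose medians were 0.23 and 0.10.

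PiZ replicate 1 was also set alone against wild-type, with the spread taken from the wild-type arrays. Of the members 5 were higher and 3 lower in this fit, beside 8.83% and 9.8% of all genes and 18.6% in either direction. Lower were Mrpl14, Mrpl49 and Mrps11, and higher were Mrpl54, Mrps18b, Mrps34, Mrps12 and Mrps18a. Of these 8 members 6 also passed with all 3 PiZ arrays. Mrps12 and Mrps18a did not, and they were 0.64 and 0.68 above wild-type in PiZ replicate 1 (limma adjusted p of 0.0248 and 0.0490). Mrps18b was 1.11 above wild-type in replicate 1 and 0.95 in the mean of the other 2 PiZ arrays. The same differences were -1.05 and -1.15 for Mrpl49 and 0.57 and 0.54 for Mrps34. The differences of these 3 genes were of like size in PiZ replicate 1, a single array, and in the other 2. They are the members that passed with every array left out in turn, a choice that favours such likeness. Its cause was not tested.

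With the 3′ to 5′ difference of the controls as a covariate, 3 members were higher (Mrps12, Mrps18b and Mrps34) and 3 lower (Mrpl14, Mrpl39 and Mrpl49), beside 7.0% and 7.64% of all genes and 14.6% in either direction. As given above, this fit rests largely on PiZ replicate 1.

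**Figure D3:**
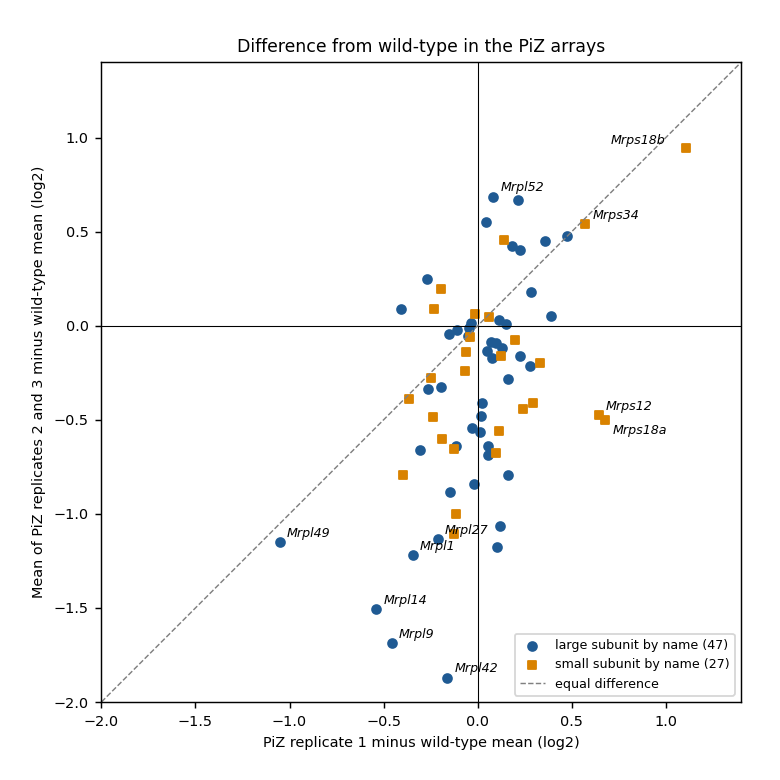
Difference from the wild-type mean (log2) in PiZ replicate 1 (horizontal axis) against the mean of PiZ replicates 2 and 3 (vertical axis), 1 point per gene, for 47 large-subunit (circles) and 27 small-subunit genes (squares). The dashed line marks equal differences. Mrps18b, Mrps34 and Mrpl49 lie near the line, whereas most other points in the lower part of the plot lie below it.

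Probe sets of the same gene often differed. The 74 members had 127 probe sets, and 33 members had more than 1. Over all single-gene probe sets, 6 of the members' sets were higher and 10 lower in limma, beside 9.16% and 10.7% of all sets and 19.9% in either direction. For 18 members more than 1 set had a mean of at least 6. In 10 of these the sets lay on both sides of 0, and in 3 they differed by more than 1 (Mrpl48, Mrpl49 and Mrpl15). No member (0 of 33) had sets called in opposite directions.

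Mrpl48 shows the contrast. The brighter set rose, as given above, whereas the other read 8.74, 8.67 and 8.76 in wild-type and 8.79, 7.58 and 7.66 in PiZ, a difference of -0.71. That set was at the wild-type level in PiZ replicate 1 and low in the other 2 arrays. The mean of both sets gave -0.15, so the direction for Mrpl48 rests on the choice of probe set.

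Mrpl39, named for the large subunit, was level with its brightest set (-0.08), whereas its other set read 9.40, 9.48 and 9.53 in wild-type and 9.07, 8.61 and 8.59 in PiZ, a difference of -0.71 ± 0.15 (limma adjusted p of 0.0188 over all sets). For Mrpl3, 1 dimmer set differed by -1.26 (limma adjusted p of 0.0225) and the other by 0.07. For Mrpl11, a further set rose by 0.53 (limma adjusted p of 0.0372) and 1 of the 4 differed by -0.14. Probe sets of 1 gene thus gave different answers for several of the genes named above.

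The brightest sets of Mrpl11, Mrpl15, Mrpl28 and Mrpl48 carry the suffix _x_at, for probes that can match other sequences. All 4 of these genes were above 0, with a median difference of 0.38, and 2 rose. Over the other 70 members 3 rose and 8 fell, with a median of -0.13. These include Mrps12, Mrps24, Mrpl19, Mrpl37 and Mrpl38, whose sets carry the suffix _s_at, which was not set apart. The reference lists pseudogenes of Mrpl48, Mrpl27, Mrpl23 and Mrps36, and signal from such copies cannot be told apart from that of the gene.

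**Figure D4:**
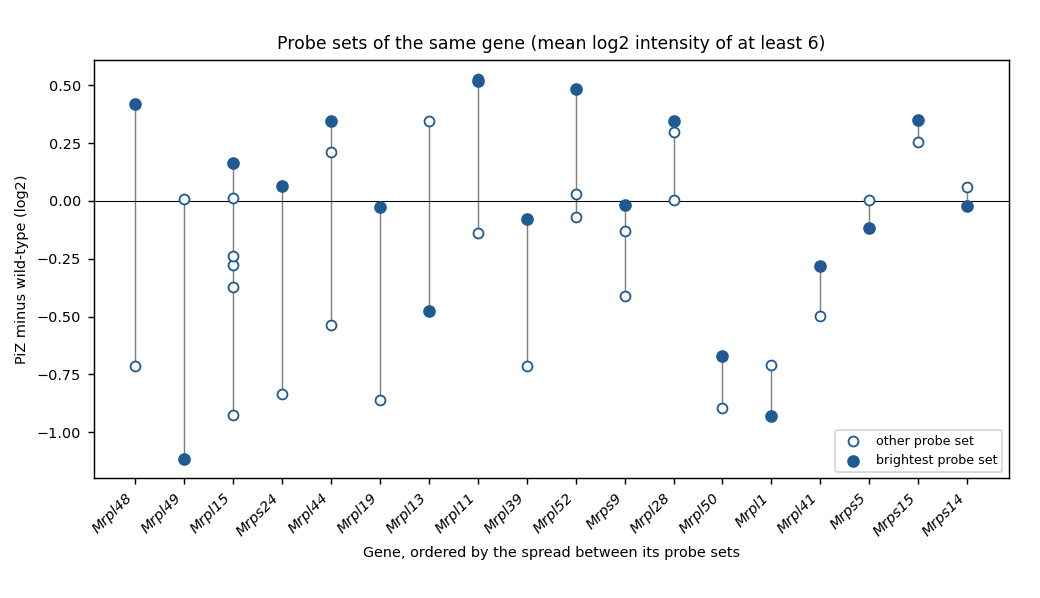
PiZ minus wild-type difference (log2, vertical axis) of each probe set with a mean of at least 6, for the 18 genes with more than 1 such set, ordered by their spread. Filled points are the brightest set of a gene and open points the others. In 10 of the 18 genes the points fall on both sides of 0.

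Other genes of the same pathway were described by lists, with the same fit. List counts are read against 11.3% of all genes higher and 12.3% lower, or 13.8% and 18.7% of genes with a mean of at least 6, and list medians against 0.08 and -0.05. With PiZ replicate 1 alone 8.83% of all genes were higher and 9.8% lower. Without wild-type replicates 1, 2 and 3 the shares of all genes were 4.24%, 4.84% and 4.18% higher and 4.68%, 5.34% and 4.44% lower. Without PiZ replicates 1, 2 and 3 they were 27.4%, 6.87% and 5.67% higher and 22.4%, 7.54% and 5.96% lower.

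Of 7 mitochondrial ribosomal proteins with other names, 4 were measured. Chchd1, a small-subunit protein, read 9.90, 9.77 and 9.97 in wild-type and 9.63, 8.24 and 8.61 in PiZ, and fell by 1.05 ± 0.32 (SE, n = 3 and 3; limma adjusted p of 0.0489). Its PiZ arrays were ordered as those of Mrpl42 and Mrpl27, with replicate 1 nearest to wild-type. Chchd1 no longer passed when any array other than PiZ replicate 1 was left out. Dap3, a GTP-binding small-subunit protein, differed by 0.14 ± 0.12 (limma adjusted p of 0.404).

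Of 20 measured genes for assembly of the mitochondrial ribosome and modification of its RNA, 3 rose and 3 fell (15% each, against 11.3% and 12.3% of all genes), with a median of -0.05 against 0.08 over all genes. Dhx30, an RNA helicase, rose by 0.63 ± 0.17 (limma adjusted p of 0.0358) and Mettl17, an assembly factor of the small subunit, by 0.62 ± 0.15 (limma adjusted p of 0.0266). The set of Dhx30 carries the suffix _x_at, for probes that can match other sequences, and that of Mettl17 the suffix _s_at. The 4 sets of Dhx30 lay between -0.05 and 0.74, and the 3 of Mettl17 between 0.13 and 0.62. Dhx30 was 0.24 above wild-type in PiZ replicate 1 and 0.82 in the mean of replicates 2 and 3. Noa1, a GTPase of assembly, fell by 0.97 ± 0.21 (limma adjusted p of 0.0172), and Mterf4, which works with a methyltransferase on the ribosomal RNA, fell by 0.57 ± 0.11 (limma adjusted p of 0.0125). The list thus had genes in either direction. Without each of wild-type replicates 1, 2 and 3 the counts of higher genes were 0, 0 and 0 and of lower genes 1, 1 and 0. Without PiZ replicates 1, 2 and 3 they were 6, 1 and 1 higher and 8, 2 and 2 lower.

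Of 16 measured genes for mitochondrial translation factors and messenger RNA handling, 1 rose and 4 fell (6.25% and 25%, against 11.3% and 12.3% of all genes), with a median of -0.23 against 0.08 over all genes. Mtfmt, which formylates the initiator methionyl-tRNA, fell by 1.31 ± 0.12 (limma adjusted p of 0.000858). Lrpprc, which stabilises mitochondrial messenger RNAs, fell by 1.29 ± 0.30 (limma adjusted p of 0.0219), and Fastkd5, of RNA processing, by 1.16 ± 0.20 (limma adjusted p of 0.00738). Mtif2, the initiation factor, fell by 0.58 ± 0.11 (limma adjusted p of 0.0118), and Slirp, the partner of Lrpprc, was the gene that rose, by 0.48 ± 0.11 (limma adjusted p of 0.0176). In PiZ replicate 1 Lrpprc, Fastkd5 and Mtif2 differed from wild-type by -0.51, -0.71 and -0.59. In the mean of replicates 2 and 3 they differed by -1.68, -1.39 and -0.58. Mtfmt read 6.83, 6.69 and 6.69 in wild-type and 5.57, 5.43 and 5.27 in PiZ, low in all 3 PiZ arrays. With PiZ replicate 1 alone 2 of the 16 were higher (12.5%) and 4 lower (25%), beside 8.83% and 9.8% of all genes. Without wild-type replicates 1, 2 and 3 the counts were 0 higher each and 2, 2 and 3 lower, and without PiZ replicates 1, 2 and 3 they were 3, 1 and 0 higher and 9, 3 and 3 lower.

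Of 14 measured genes for transcription and replication of mitochondrial DNA, 2 rose and 7 fell (14.3% and 50%, against 11.3% and 12.3% of all genes), with a median of -0.55 against 0.08 over all genes. Tfam, which packages mitochondrial DNA and starts its transcription, read 9.42, 9.29 and 9.43 in wild-type and 8.53, 7.59 and 7.55 in PiZ, and fell by 1.50 ± 0.25 (limma adjusted p of 0.00733). Trmt10c and Hsd17b10, both parts of mitochondrial ribonuclease P, fell by 1.30 ± 0.34 and 0.93 ± 0.21 (limma adjusted p of 0.0314 and 0.0201). The other probe set of Hsd17b10 differed by -0.15. Polg2, a subunit of the mitochondrial DNA polymerase, fell by 0.75 ± 0.16 (limma adjusted p of 0.0170). In PiZ replicate 1 Trmt10c, Hsd17b10 and Polg2 differed from wild-type by -0.43, -0.43 and -0.61. In the mean of replicates 2 and 3 they differed by -1.74, -1.18 and -0.83. Tfam was low in all 3 PiZ arrays, least so in replicate 1. With PiZ replicate 1 alone 1 gene was higher (7.14%) and 2 were lower (14.3%), beside 8.83% and 9.8% of all genes. Without wild-type replicates 1, 2 and 3 the counts were 1 higher each and 4, 3 and 3 lower, and without PiZ replicates 1, 2 and 3 they were 3, 1 and 1 higher and 9, 3 and 3 lower.

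Of 14 measured nuclear regulators of mitochondrial genes, 1 rose and 4 fell (7.14% and 28.6%, against 11.3% and 12.3% of all genes), with a median of -0.28 against 0.08 over all genes. Gabpa, the DNA-binding part of the ETS factor GABP, read 9.56, 9.33 and 9.69 in wild-type and 8.67, 7.79 and 7.96 in PiZ, and fell by 1.39 ± 0.23 (limma adjusted p of 0.00707). Yy1, a zinc-finger factor, read 10.42, 10.50 and 10.59 in wild-type and 9.57, 9.48 and 9.46 in PiZ, and fell by 1.00 ± 0.11 (limma adjusted p of 0.00141). All 3 PiZ arrays of both genes were below wild-type, but their other probe sets differed, from -1.39 to -0.15 over 2 sets of Gabpa and up to 0.47 over 4 sets of Yy1.

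Thap11, a partner of HCFC1, fell by 1.22 ± 0.20 (limma adjusted p of 0.00717), and Ppara, a nuclear receptor of fat oxidation, by 1.10 ± 0.21 (limma adjusted p of 0.0103). Ppargc1a, a coactivator of mitochondrial biogenesis, rose by 0.80 ± 0.23 (limma adjusted p of 0.0394), with 5 sets between -0.29 and 0.80. Nrf1 differed by 0.28 ± 0.20 (limma adjusted p of 0.329), Esrra by -0.28 ± 0.14 (limma adjusted p of 0.178) and Myc by -0.46 ± 0.62 (limma adjusted p of 0.602). Regulators that passed thus went in either direction. With PiZ replicate 1 alone 1 of the 14 was higher (7.14%) and 5 were lower (35.7%), beside 8.83% and 9.8% of all genes. Without wild-type replicates 1, 2 and 3 none (0) was higher and 4 were lower each time, and without PiZ replicates 1, 2 and 3 the counts were 3, 1 and 0 higher and 5, 4 and 4 lower.

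**Figure D5:**
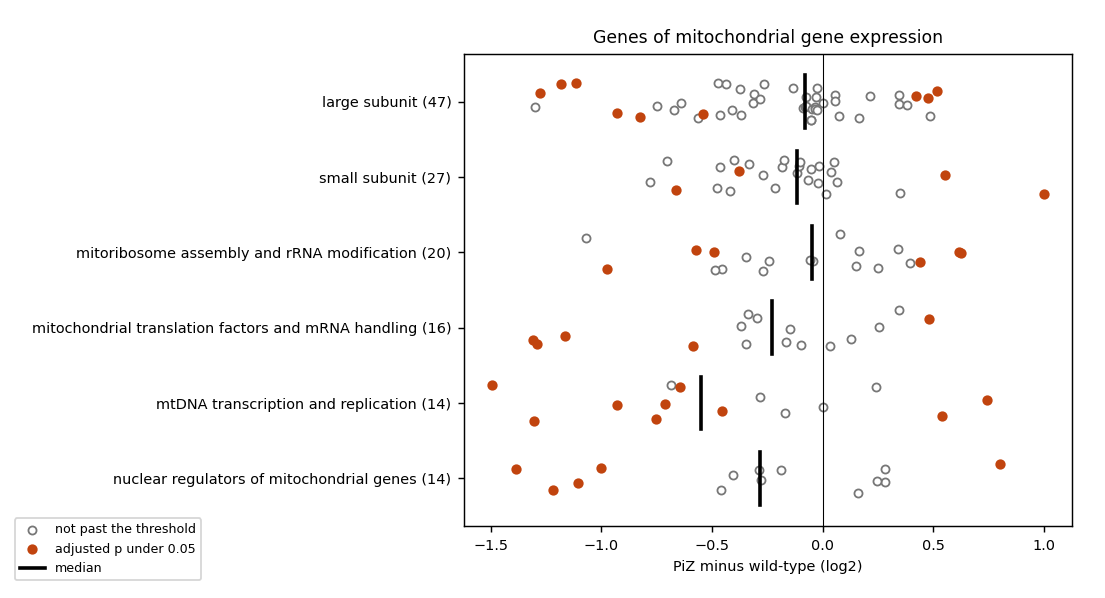
PiZ minus wild-type difference (log2, horizontal axis) of each gene of the large subunit (47), the small subunit (27) and 4 lists of mitochondrial gene expression with 20, 16, 14 and 14 measured genes. Filled points passed the threshold, and black bars are medians, from -0.05 for assembly to -0.55 for transcription and replication of mitochondrial DNA.

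As the nearest other groups, 41 genes for cytosolic ribosomal proteins had a median of -0.03, with 4 higher (9.76%) and 0 lower in limma (8 and 6 at an unadjusted p under 0.05). The 78 nuclear genes for subunits of the respiratory chain and ATP synthase had a median of -0.29, with 5 higher (6.41%) and 19 lower (24.4%). Over all genes the median was 0.08, with 11.3% higher and 12.3% lower (2596 and 2365 of 12393 at an unadjusted p under 0.05 in limma). In PiZ replicate 1 their medians were 0.09 and -0.13, and in the mean of replicates 2 and 3 they were -0.15 and -0.39. The members lay between, at 0.03 and -0.23. The medians were not tested against each other. Without wild-type replicates 1, 2 and 3, and PiZ replicates 1, 2 and 3, the 78 had 3, 2, 1, 44, 7 and 4 lower. For cytosolic ribosomal proteins 0, 0, 0, 10, 1 and 0 genes were higher and 0, 0, 0, 16, 0 and 0 lower in these fits, so the count of 0 lower rests on PiZ replicate 1.

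Cell type markers were read beside these results. Of 7 Kupffer cell and macrophage markers 3 rose, with a mean level of 8.95 to 9.09 in wild-type and 9.14 to 9.48 in PiZ. Of 3 measured neutrophil markers 2 rose, with a mean level of 4.69 to 5.32 in wild-type and 6.52 to 6.91 in PiZ. Markers of endothelium, stellate cells, cholangiocytes, T and NK cells, B cells, erythroid cells and proliferating cells included 0 of 34 that passed in limma (5 higher and 1 lower at an unadjusted p under 0.05). Of the 8 hepatocyte markers 1 rose and 2 fell. Among all genes 11.3% rose and 12.3% fell. At an unadjusted p under 0.05 in limma, 2596 of all 12393 genes were higher and 2365 lower. In bulk liver, fewer cells of a type and less RNA per cell cannot be told apart, and the part of cell composition in the members' differences was not tested.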

How the data were processed

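The values analysed are log2 intensities per probe set, which the authors made with RMA in affy, per the submitters' processing notes. The sources used here give no versions, chip definition or filters. RMA makes the arrays' distributions alike, so a shift shared by most genes is removed, and no detection calls were used. The log2 scale was read from the values, from 2.30 to 14.98. The labels call the samples biological replicates and give no batch.

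Of 22690 probe sets, 64 were controls. GEO's platform annotation named 1 gene for 20380, several for 691 and none for 1555. Entrez identifiers of 20351 of the 20380 were in the mouse reference table. Of the probe sets with several genes, 3 name a mitochondrial ribosomal protein and were not used. The files name no genome build, so coordinates are given only for RefSeq promoters. All 6 value columns were matched to samples.

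PiZ was compared with wild-type with lmFit and eBayes of limma 3.58.1 (R 4.3.3), two-sided and without covariate, and p-values were adjusted by Benjamini-Hochberg over all 12393 genes. No list was tested, and lists are given by counts and medians beside all genes. Arrays are limited in precision by their number. On simulated data for this comparison, with 12393 genes and 100 changed at each size, 93% of changes of 1 and 100% of changes of 2 were recovered. Of 210 calls 17 were false and 0 had the wrong sign. The simulated spread was equal in both groups, unlike that of the PiZ and wild-type arrays. Alternatives changed the probe set rule, a filter on dim genes, scaling, variance model, array weights and threshold, used replicate blocks or a 3′ to 5′ covariate, took PiZ replicate 1 alone, and left out each array. Python 3.11.15, pandas 2.3.3 and matplotlib 3.10.9 were used for tables and figures.

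The members and lists were chosen with earlier results of these data known. Members named with their values are all that passed without overlap of the groups, up to 12 per direction and subunit, the 3 with the smallest p per subunit that did not pass, and Mrps18a, Mrps30, Mrps36, Mrps12, Mrpl12, Mrps34 and Mrpl44. From each list the 4 largest changes that passed were named (or, failing any, the 2 genes nearest the threshold), with Nrf1, Gabpa, Yy1, Ppargc1a, Esrra and Myc. Mrpl51, Mrpl22, Mrpl38, Mrps2, Mrpl13, Mrpl17, Mrpl39, Mrpl50, Mrpl52, Dap3, Slirp and the genes listed by pattern were named after their values were seen.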

Additional observations from a re-analysis of the deposited data

How the results depend on the processing

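Of the 13 members that passed, 12 kept their direction in all 16 alternatives, and Mrps18b, Mrps34 and Mrpl49 passed in all 16. The exception was Mrpl48, at -0.15 with the mean of all probe sets. Some alternatives could not turn a direction. The filter on dim genes and the stricter threshold leave each difference as it is. So does the mean of probe sets for genes with 1 set, such as Mrps18b and Mrps34. The probe set shared by Mrps34 and Nme3 entered no alternative. Large-subunit genes higher numbered 3, against 1 with the mean of probe sets, 5 with cyclic loess, 8 with array weights, 1 with PiZ replicate 1 alone, 0 with the 3′ to 5′ covariate, 0 at an adjusted p of 0.01, and 0 to 7 with an array left out. Large-subunit genes lower numbered 6, against 20 with weights, 2 with PiZ replicate 1 alone, 3 with the covariate, 1 at 0.01, and 1 to 20 with an array left out. Small-subunit genes higher numbered 2, against 4 with PiZ replicate 1 alone, and 2 to 3 with an array left out. Small-subunit genes lower numbered 2, against 1 with loess, 1 with centring on reference genes, 1 with a trended robust variance, 13 with weights, 1 with PiZ replicate 1 alone, 0 with the covariate, 0 at 0.01, and 0 to 12 with an array left out. All genes that passed numbered 2921, against 6520 with weights, 1814 with the covariate, 914 at 0.01, and 1068 to 6175 with an array left out. Cyclic loess put the median at 0.03 for the large and -0.02 for the small subunit. Whether the replicate numbers pair the samples was not settled. Deviations from the group means correlated at 0.26, 0.29 and -0.03 between arrays of the same number, and at -0.37 to 0.25 between arrays of different number. With the replicate block, 3225 genes passed, with 3 large-subunit genes higher and 8 lower and 2 small-subunit genes higher and 5 lower. Signs also turned for genes that had not passed. With PiZ replicate 1 alone and with the covariate, Mrpl12 was at 0.054 and 0.12, Mrps12 at 0.64 and 0.71, Mrps18a at 0.68 and 0.80, Myc at 0.45 and 0.18, and Nrf1 at -0.20 and -0.22. Mrps12 was at 0.020 with loess, Nrf1 at -0.0099 with the mean of probe sets, and without PiZ replicate 2 Mrps12 was at 0.16 and Mrps18a at 0.30. Without PiZ replicate 3 Mrps12 was at 0.0051, and without PiZ replicate 1 Mrps12 was at -0.47 and Mrps18a at -0.50. The fit with the covariate rests largely on PiZ replicate 1, so it is not a check separate from that array alone. Fits with fewer arrays have less power at a given spread, but the counts did not follow the number of arrays alone. Without PiZ replicate 1, 6175 genes passed, against 2921 with all arrays. The cause of these shifts was not tested. With 3 arrays per group and a wider spread in PiZ, a member that missed the threshold is not shown to be unchanged.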
